A study of Mus musculus with 8 samples.

Results

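The G-patch family was examined in mouse embryonic stem cells through 10 genes that encode G-patch proteins other than GPATCH1, namely Gpatch2, Gpatch2l, Gpatch3, Gpatch4, Gpatch8, Gpatch11, Gpkow, Tfip11, Sugp1 and Rbm17. The choice was by name, made with earlier results of these data known but not by a rule on measured values, and these are 10 of the 55291 genes counted. All 10 were among the 16371 genes with enough counts to be tested. The study asked how the loss of DHX35 or GPATCH1 affects the fidelity of splicing, and RNA was sequenced from 8 libraries in 4 groups of 2. Cells of genotype DHX35-dTAG and cells of genotype GPATCH1-dTAG received either 200 nM dTAG-13 or its solvent DMSO for 4 h. In each line the named protein carries at its own gene an FKBP12-derived tag, through which dTAG-13 directs the protein to degradation, so the DMSO cells carry the tag too. The labels give the cells as E14 and their growth protocol mentions R1, and the cultures contained LIF, PD0325901 and CHIR99021. Which clone each library came from is not given in the sources used here, and no untagged cells are among the samples, so a difference between the lines cannot be told apart from a difference between clones. Nothing in the labels says that the 2 libraries of a group came from separate cultures, and p-values measure only the spread between these libraries.

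The G-patch is a short glycine-rich stretch that binds DEAH-box RNA helicases and stimulates them by bridging their mobile domains. Some of these helicases are served by their own G-patch partner or by several in turn, which place them on the right RNA at the right step of splicing or ribosome assembly. GPATCH1 is the G-patch partner of DHX35, and the 10 genes encode relatives that serve other helicases, DHX15 and DHX16 above all, or whose partner is less clear.

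To show what the relatives share, the glycine codons at the heart of the G-patch were searched for in the longest complete coding sequence of each gene (GENCODE M21, GRCm38). The pattern was GGNNNNNNNNNNGGNNNNGGNNNNGGN, that is, glycine codons 1, 5, 7 and 9 of a run of 9 codons, read in frame on the coding strand only. It was found in 8 of the 10 genes, in Gpatch1 and in 10 of 12 other genes for G-patch proteins. Of all 21526 protein-coding genes, 1002 (4.65%) hold it at least once. Read in frame, the pattern was not found in the longest complete coding sequences of Gpatch11 and Gpatch2l. Other reading frames and other transcripts were not searched. The stretches are given 5′ to 3′ from the codon before the first of these glycines, with the glycine codons in capitals, so that Gpatch1 can be set beside its relatives:
Gpatch1: atgGGTtggaaggaaGGGcaaGGAgtcGGC
Tfip11: atgGGCtacgtccctGGGcgtGGCctgGGG
Gpkow: atgGGAtggaaacctGGCaagGGCatcGGC
Sugp1: atgGGCtggaaagagGGCgagGGGctgGGC
Rbm17: tatGGCttccgggaaGGTcagGGActgGGG
Gpatch8: catGGGtggaagctgGGCcagGGAttgGGA
Gpatch4: catGGAtggactcaaGGCaagGGCctgGGC
Gpatch2: atgGGAtggacacccGGGtcaGGCctcGGG
Gpatch3: cagGGCtgggctgaaGGCcagGGCctgGGC

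Most of these stretches lie within 1 coding exon. That of Gpatch1 is in exon 5 of 20, at chr7:35307226-35307255 on the minus strand. Among the relatives it lies at chr5:112329861-112329890 (plus strand, exon 5 of 14) in Tfip11, at chrX:7702129-7702158 (plus, exon 4 of 11) in Gpkow and at chr8:70071195-70071224 (plus, exon 12 of 14) in Sugp1. It lies at chr2:11589031-11589060 (minus, exon 8 of 12) in Rbm17, at chr11:102528107-102528136 (minus, exon 3 of 8) in Gpatch8, at chr1:187348422-187348451 (plus, exon 10 of 10) in Gpatch2 and at chr4:133583009-133583038 (plus, exon 6 of 7) in Gpatch3. In Gpatch4 the stretch is divided between exons 2 and 3, and its ends are at chr3:88051274-88051686 on the plus strand. The place along the coding sequence differed widely. The stretch began at 3.39% of the coding sequence in Gpatch8 and 5.30% in Gpatch4, at 17.5% in Gpatch1 and 19.2% in Tfip11, and at 90.5% in Gpatch2, where it is close to the stop codon.

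Levels are given as CPM, which are raw counts scaled to the library size, with library sizes rescaled by the TMM method so that most genes keep the same level across libraries. Total counts ranged from 12014203 to 14994173. From 1.27% to 20.9% of them fell on Gm23935, annotated as a microRNA gene, and the ribosomal RNA gene CT010467.1. In DHX35-dTAG cells this share was 3.15% and 1.54% in DMSO and 12.0% and 20.2% in dTAG-13. In GPATCH1-dTAG cells it was 4.23% and 20.9% in DMSO and 1.27% and 2.02% in dTAG-13. The share thus separated the treatments in opposite directions in the lines, and separated the lines in each treatment. Its part in the values below was not tested. With total counts as library sizes, the median over all genes of the log2 fold change shifted by -0.24 in DHX35-dTAG cells and by 0.16 in GPATCH1-dTAG cells, and every value below is on the TMM scale unless said otherwise. One library, replicate 1 of the DMSO-treated DHX35-dTAG cells, had a mean correlation of 0.976 with the rest, which had at least 0.988 each, and so stood apart. The 9 pluripotency markers, Pou5f1 and Nanog among them, summed to 5368 to 6116 CPM in each library. The summed levels of 5 markers each were 24.7 to 37.6 CPM for trophectoderm, 5.25 to 7.56 CPM for primitive endoderm and 2.56 to 5.76 CPM for fibroblasts, and no marker was at 0 in every library.

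The 10 mRNAs together held between 463 and 494 CPM in each library. Per kilobase of exon, the level averaged over the 8 libraries was 38.9 CPM per kb for Rbm17, which encodes the splicing factor SPF45 that takes part in the choice of 3′ splice sites. Tfip11 followed with 20.0 CPM per kb, Gpatch4 with 14.7, Gpatch8 with 11.5 and Sugp1 with 11.1. Gpkow had 5.90 CPM per kb, Gpatch3 5.77, Gpatch2 5.03, Gpatch2l 2.77 and Gpatch11 1.48. Taking the lowest and highest of the 8 libraries, Rbm17 did not overlap Tfip11, Sugp1 did not overlap Gpkow, Gpatch2 did not overlap Gpatch2l, and Gpatch2l did not overlap Gpatch11. Other neighbours in this order overlapped. Rbm17 thus stood above 92.6% of the 15986 tested genes of known exon length and Gpatch11 above 30.3%. Gpatch1 had 6.47 ± 0.42 CPM per kb (SD, n = 2) in DHX35-dTAG cells in DMSO, and the corresponding value in GPATCH1-dTAG cells was 1.87 ± 0.08 (SD, n = 2).

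**Figure D1:**
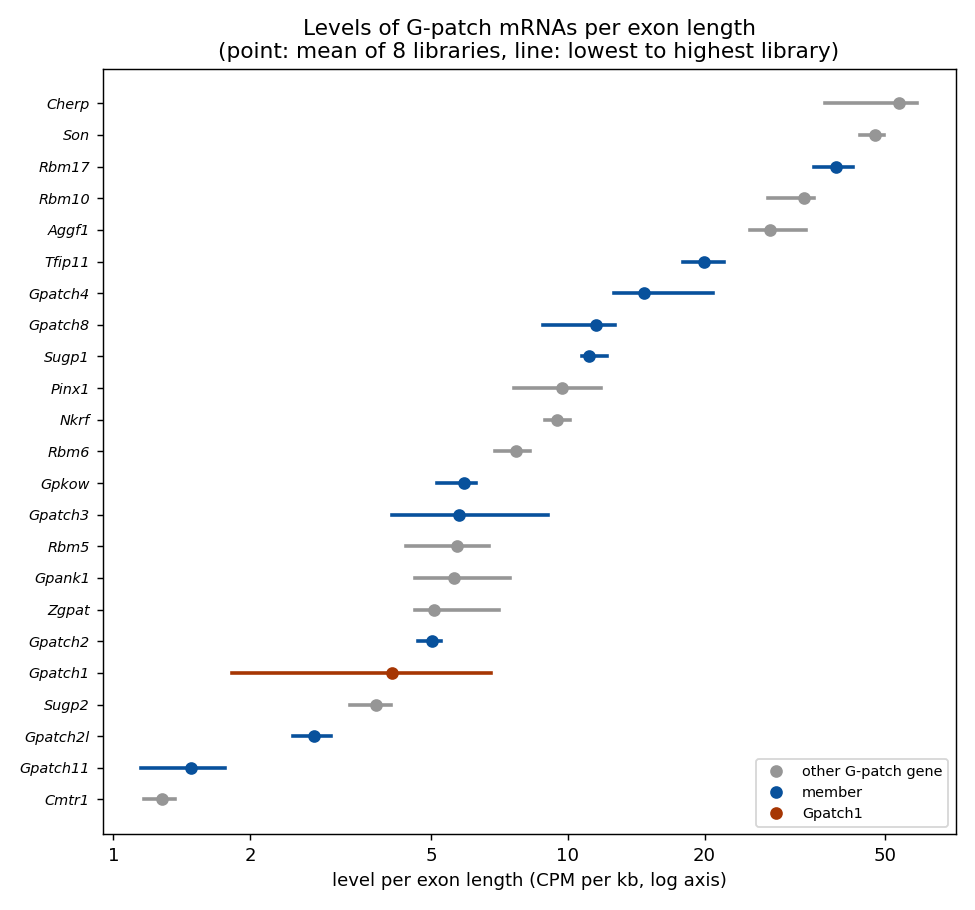
Points give the mean level over 8 libraries in CPM per kb of exon on a log axis, and lines run from the lowest to the highest library, for the 10 genes (blue), 12 other G-patch genes (grey) and Gpatch1 (red). The 10 genes run from 1.48 CPM per kb for Gpatch11 to 38.9 for Rbm17, and the line of Gpatch1 is the longest because its level differs between the lines.

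Across the 8 libraries, 6 of the 10 mRNAs varied little and 4 varied more. The ratio of the highest to the lowest library was 1.13 for Gpatch2, 1.14 for Sugp1, 1.21 for Gpatch2l, 1.22 for both Rbm17 and Gpkow, and 1.24 for Tfip11. It was 1.44 for Gpatch8, 1.53 for Gpatch11, 1.65 for Gpatch4 and 2.20 for Gpatch3. That replicate 1 held the highest library of Gpatch3 and Gpatch4 and the lowest of Gpatch8 and Gpkow. In that group 4 of the 10 genes differed by more than 1.2-fold between the replicates, against 45.6% of the 10563 tested genes with a mean of at least 5 CPM. In each of the other 3 groups 0 did, against 5.67% to 13.8%. Over all 45 pairs of the 10 genes, Pearson correlations of the log2 levels across the 8 libraries had a median of 0.03 and ran from -0.91 to 0.80, with 23 above 0, and across the 7 libraries other than that replicate 1 they had a median of -0.05 and ran from -0.90 to 0.81. These points share libraries and scaling, and are a description only. The most similar genes were sought for Gpatch3 and Gpatch4, the pair with the widest range. They were Gpn1 (r = 0.99 over the 8 libraries), Gm6467 (0.98) and Tnk2os (0.98) for Gpatch3, and Cyp4f16 (0.99), Mrpl52 (0.99) and Tmem223 (0.99) for Gpatch4. Gpatch3 and Gpatch4 were both highest in the library that stood apart, and without it these correlations were 0.96 to 0.97 for Gpatch3 and 0.90 to 0.94 for Gpatch4. Over the 8 libraries the 100th most similar gene still had r = 0.91 and 0.94, respectively.

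**Figure D2:**
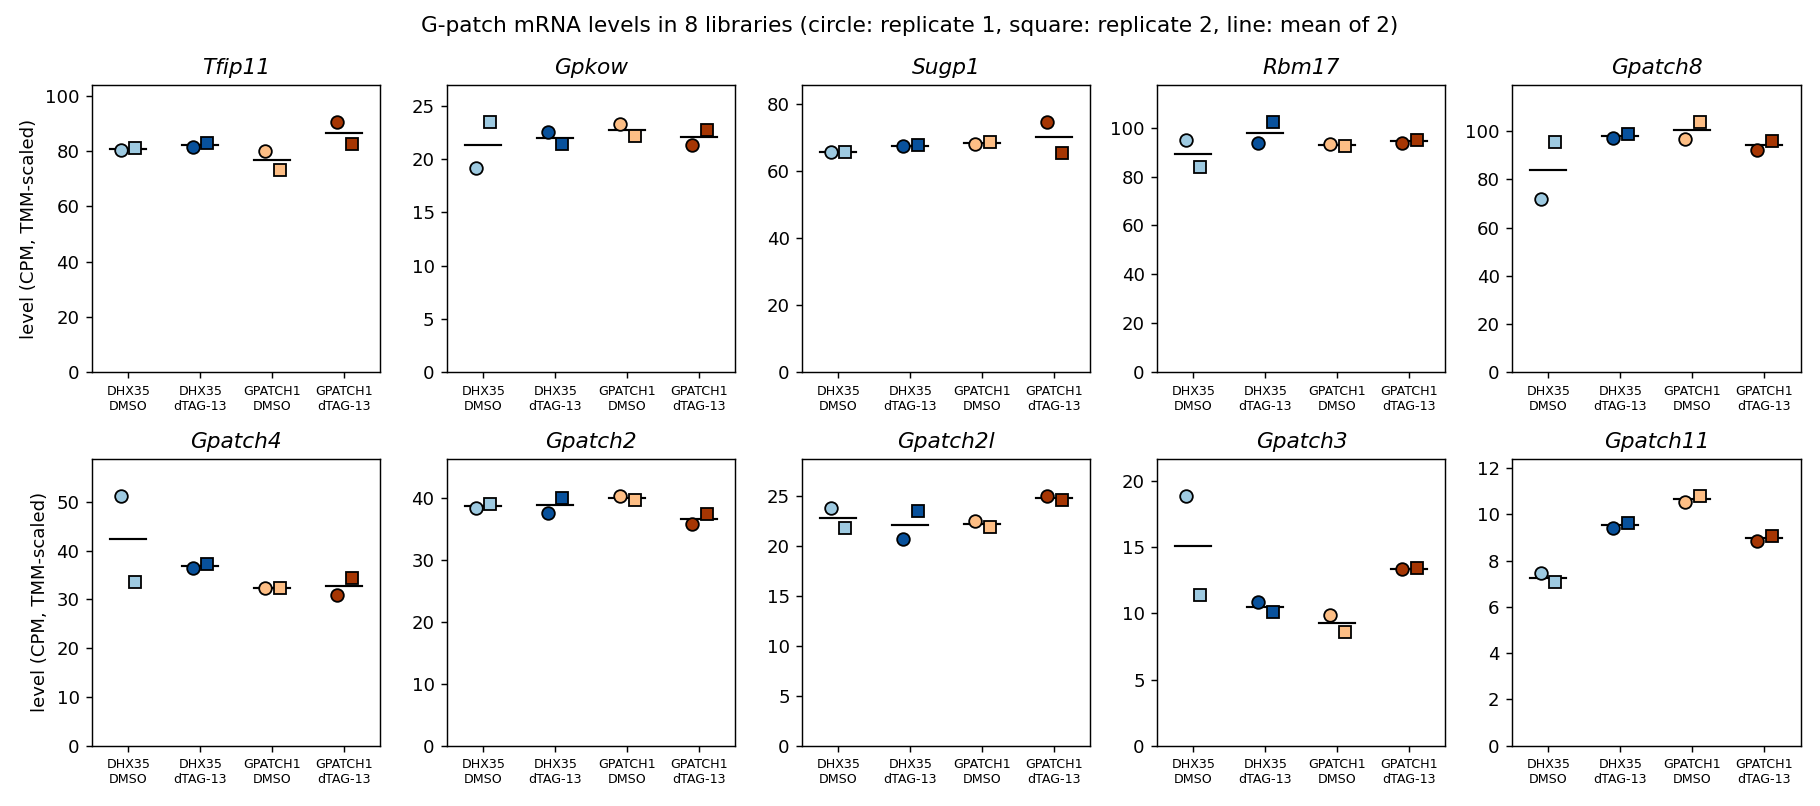
Each panel shows 1 gene, with the TMM-scaled level in CPM on an axis from 0, circles for replicate 1, squares for replicate 2 and a line for the mean of 2 libraries in each group. In the DMSO group of DHX35-dTAG cells the circle is far from the square for Gpatch3 (18.8 against 11.4 CPM), Gpatch4 (51.1 against 33.6) and Gpatch8 (72.1 against 95.5), while the replicates of Gpatch11 lie close together in every group.

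The first question was whether 4 h of dTAG-13 altered the family in either line. None of the 10 mRNAs passed an adjusted p of 0.05 in DHX35-dTAG cells or in GPATCH1-dTAG cells (quasi-likelihood test of edgeR, p-values adjusted by Benjamini-Hochberg over the 16371 genes, as in all tests that follow), and DESeq2 called 0 of them too. Of all genes tested, edgeR called 0% in either line. At an unadjusted p under 0.05 there were 2 of the 10, Gpatch3 and Gpatch11, in DHX35-dTAG cells, where 5.39% of all genes had such a p. In GPATCH1-dTAG cells there was 1, Gpatch3, against 2.97% of all genes. The groups did not overlap for 5 of the 10 genes in DHX35-dTAG cells and for 7 in GPATCH1-dTAG cells, where 28.7% and 41.8% of all genes did not. The median log2 fold change of the 10 was 0.03 and 0.02 in the 2 lines, and that of all genes was -0.01 and 0.00. The 95% interval lay within a 1.5-fold change either way for 7 of the 10 genes in DHX35-dTAG cells, the exceptions being Gpatch3, Gpatch4 and Gpatch11. In GPATCH1-dTAG cells it did for 9, Gpatch3 being the exception. Because these are bulk samples, fewer cells that express a gene and less of its RNA per cell cannot be told apart.

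Tfip11 and Gpkow encode G-patch proteins of the helicases that act late and early in the splicing cycle. TFIP11 stimulates DHX15 when spliceosomes are taken apart, and GPKOW works with DHX16, which activates the spliceosome. Tfip11 (ENSMUSG00000029345.13, chr5:112326358-112338073) was at 80.5 and 81.1 CPM in DHX35-dTAG cells in DMSO and at 81.5 and 83.0 in dTAG-13. The GPATCH1-dTAG libraries gave 80.0 and 73.2 CPM in DMSO and 90.4 and 82.5 in dTAG-13. In both lines the dTAG-13 libraries were above the DMSO libraries, but by little, and with total counts as library sizes they were below them in DHX35-dTAG cells (log2 fold change -0.21). The log2 fold change was 0.03 (SE 0.09, adjusted p = 0.93, edgeR) in DHX35-dTAG cells and 0.17 (SE 0.09, adjusted p = 1.00, edgeR) in GPATCH1-dTAG cells. The 95% intervals were -0.17 to 0.23 and -0.03 to 0.37, and the value in GPATCH1-dTAG cells ran from 0.11 to 0.24 with each library left out in turn. Tfip11 shares 515 exonic bases, 12.6% of its exon length, with Srrd on the opposite strand, and the strand setting of the counting is not given in the sources used here. Gpkow (ENSMUSG00000031148.14, chrX:7697131-7710262) stayed between 19.2 and 23.5 CPM in the 8 libraries, and both of these extremes were DMSO libraries of DHX35-dTAG cells. Its log2 fold changes were 0.04 (95% interval -0.24 to 0.32) in DHX35-dTAG cells and -0.05 (-0.32 to 0.23) in GPATCH1-dTAG cells, and with total counts as library sizes both signs turned (-0.20 and 0.12). A share of 7.07% of the 50-base words in its transcripts also occurs in Gm5912.

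Sugp1, Rbm17 and Gpatch8 encode proteins tied to the recognition of the 3′ end of introns. SUGP1 binds SF3B1 and recruits DHX15 at the branch site, RBM17 contacts splicing factors through a U2AF homology motif, and GPATCH8 is a zinc finger protein linked to branch site choice. Sugp1 (ENSMUSG00000011306.7, chr8:70042813-70072347) was the steadiest over the replicates of DHX35-dTAG cells, with 65.7 and 65.8 CPM in DMSO and 67.4 and 67.8 in dTAG-13. In the GPATCH1-dTAG line the levels were 68.1 and 68.7 CPM in DMSO and 74.5 and 65.5 in dTAG-13. The groups were separate in the first line and overlapped in the other. Its log2 fold changes were 0.04 (95% interval -0.16 to 0.25) and 0.04 (-0.17 to 0.24), the first of which was -0.20 with total counts as library sizes. Rbm17 (ENSMUSG00000037197.11, chr2:11585437-11604153) ranged from 83.9 to 102.2 CPM, and both extremes were libraries of DHX35-dTAG cells. Its log2 fold changes were 0.13 (95% interval -0.08 to 0.34) in DHX35-dTAG cells, or -0.11 with total counts as library sizes, and 0.02 (-0.18 to 0.23) in GPATCH1-dTAG cells. The first value was 0.22 without replicate 1 in DMSO and 0.055 without replicate 2. The level of Gpatch8 (ENSMUSG00000034621.14, chr11:102475915-102556392) in DHX35-dTAG cells was 72.1 and 95.5 CPM in DMSO and 97.4 and 99.1 in dTAG-13. In GPATCH1-dTAG cells it was 97.0 and 103.7 CPM in DMSO and 92.4 and 95.9 in dTAG-13. The library at 72.1 CPM stood apart and the other 7 lay within 92.4 to 103.7. The log2 fold change was 0.23 (SE 0.12, adjusted p = 0.71, edgeR) in DHX35-dTAG cells and -0.09 (SE 0.12, adjusted p = 1.00, edgeR) in GPATCH1-dTAG cells, and with total counts as library sizes the signs changed to -0.01 and 0.08. With each library left out in turn, the value in GPATCH1-dTAG cells ran from -0.14 to -0.05. Without replicate 1 in DMSO the value in DHX35-dTAG cells was 0.04, and without replicate 2, when only the library that stood apart was left, it was 0.46 with an adjusted p of 0.000348 (edgeR), a fit in which the lone library is assumed to vary like the other groups and which called 28.8% of all genes.

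Gpatch4 encodes a nucleolar G-patch protein that stimulates DHX15, and lies at chr3:88043108-88055993 (ENSMUSG00000028069.16). It was at 51.1 and 33.6 CPM in DHX35-dTAG cells in DMSO and at 36.3 and 37.1 in dTAG-13. The GPATCH1-dTAG libraries were at 32.3 and 32.4 CPM in DMSO and at 31.0 and 34.4 in dTAG-13. Treated and control groups overlapped in both lines, and the library at 51.1 CPM was alone. The log2 fold change in DHX35-dTAG cells was -0.20 (95% interval -0.59 to 0.19). It was 0.13 without replicate 1 in DMSO, and -0.47 (adjusted p = 0.00118, edgeR) without replicate 2, the same fit that called 28.8% of all genes. In GPATCH1-dTAG cells the log2 fold change was 0.01 (95% interval -0.38 to 0.41).

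Gpatch2, Gpatch2l, Gpatch3 and Gpatch11 encode less studied relatives. GPATCH2 is a nuclear protein and GPATCH2L its paralogue. Gpatch2 (ENSMUSG00000039210.16, chr1:187215508-187351704) stayed between 35.9 and 40.4 CPM, with log2 fold changes of 0.01 (95% interval -0.20 to 0.21) in DHX35-dTAG cells and -0.13 (-0.33 to 0.08) in GPATCH1-dTAG cells, which were -0.23 and 0.036 with total counts as library sizes. Gpatch2l (ENSMUSG00000021254.9, chr12:86241858-86291784) stayed between 20.7 and 25.03 CPM, with log2 fold changes of -0.05 (95% interval -0.30 to 0.20) and 0.16 (-0.09 to 0.41). Of its exon length, 12.3% is shared with the noncoding RNA gene 4732487G21Rik on the opposite strand.

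Gpatch3 (ENSMUSG00000028850.2, chr4:133574745-133584243), whose product has been tied to antiviral signalling, was among the weakly counted genes, with 97 to 255 counts per library. In DHX35-dTAG cells it was at 18.8 and 11.4 CPM in DMSO and at 10.9 and 10.1 in dTAG-13. In GPATCH1-dTAG cells it was at 9.90 and 8.58 CPM in DMSO and at 13.3 and 13.4 in dTAG-13. Both dTAG-13 libraries lay below both DMSO libraries in the first line and above them in the other. The log2 fold change was -0.52 in DHX35-dTAG cells (SE 0.22, 95% interval -1.02 to -0.02, adjusted p = 0.71, edgeR). It was -0.12 without replicate 1 in DMSO and -0.84 (adjusted p = 0.000174, edgeR) without replicate 2, again beside calls for 28.8% of all genes. In GPATCH1-dTAG cells the log2 fold change was 0.53 (SE 0.22, 95% interval 0.03 to 1.02, adjusted p = 1.00, edgeR), and it stayed between 0.43 and 0.64 with each library left out in turn. A fit of the 4 libraries of GPATCH1-dTAG cells alone gave 0.51 with an adjusted p of 0.0400 (edgeR) and called 127 genes in all.

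Gpatch11 (ENSMUSG00000050668.10, chr17:78835567-78848308), whose product has been found at centromeres, had the lowest level per kilobase, with 101 to 163 counts per library. It was at 7.46 and 7.07 CPM in DHX35-dTAG cells in DMSO and at 9.40 and 9.64 in dTAG-13. In GPATCH1-dTAG cells it was at 10.5 and 10.8 CPM in DMSO and at 8.86 and 9.08 in dTAG-13. On the TMM scale the 4 groups did not overlap, and the dTAG-13 groups of both lines lay between the DMSO groups. The share of all genes with this pattern was not counted. With total counts as library sizes, DHX35-dTAG cells in dTAG-13 (9.16 and 8.26 CPM) overlapped GPATCH1-dTAG cells in DMSO (11.1 and 9.14 CPM). The log2 fold change was 0.39 in DHX35-dTAG cells (SE 0.13, 95% interval 0.09 to 0.69, adjusted p = 0.71, edgeR) and -0.25 in GPATCH1-dTAG cells (SE 0.13, 95% interval -0.54 to 0.04, adjusted p = 1.00, edgeR). Leaving out replicate 1 in DMSO changed the first value little, to 0.43, whereas with total counts as library sizes the values were 0.15 and -0.085.

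**Figure D3:**
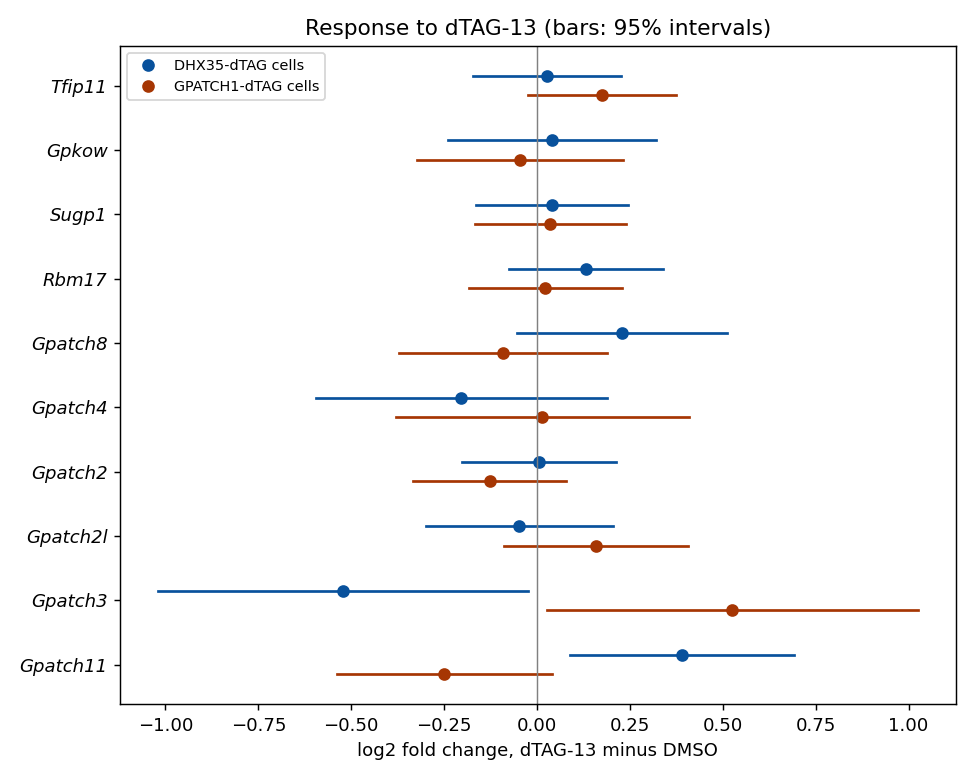
Points are log2 fold changes, dTAG-13 minus DMSO, and bars their 95% intervals, in DHX35-dTAG cells (blue) and GPATCH1-dTAG cells (red). Most points lie close to 0, while Gpatch3 (-0.52 and 0.53) and Gpatch11 (0.39 and -0.25) have opposite signs in the lines, and none passed the adjusted threshold.

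Whether the lines responded differently was tested directly, as the response of GPATCH1-dTAG cells minus that of DHX35-dTAG cells. For 3 of the 10 genes, Gpatch3, Gpatch8 and Gpatch11, the groups were separate in both lines in opposite directions, as for 6.21% of all genes. The share of counts on Gm23935 and CT010467.1, given above, was also separate in both lines in opposite directions. Its part in these responses was not tested. The test of the difference called 0 of the 10 genes by edgeR and 0 by DESeq2, and 0% of all genes by edgeR. At an unadjusted p under 0.05 there were 2 of the 10, against 3.91% of all genes. These were Gpatch3, with a difference of 1.05 on the log2 scale (SE 0.31, 95% interval 0.34 to 1.75, adjusted p = 0.86, edgeR), and Gpatch11, with -0.64 (SE 0.18, 95% interval -1.06 to -0.22, adjusted p = 0.86, edgeR). For Gpatch8 the difference was -0.32 (SE 0.18, 95% interval -0.72 to 0.08). Without replicate 1 in the DMSO group of DHX35-dTAG cells, it was 0.64 for Gpatch3, -0.68 for Gpatch11 and -0.13 for Gpatch8, none of them called. Leaving out replicate 2 in its place gave 1.36, -0.61 and -0.55, and 0.48 for Gpatch4, and these 4 genes were then called, as were 20.9% of all genes. With total counts as library sizes, Gpatch3 was called with a difference of 1.44 (adjusted p = 0.00295, edgeR), while that of Gpatch11 was -0.24 (adjusted p = 0.66, edgeR) and that of Gpatch8 turned to 0.09. This setting shifts the median difference of all genes by 0.40. Gpatch3 was also called when no gene was filtered out (1.05, adjusted p = 0.0111, edgeR). Both fits called more of all genes than the main fit, and their counts are given with the alternatives below. For the other 7 genes the 95% interval of the difference included 0.

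The lines were then compared with each other. Gpatch1 itself was lower in GPATCH1-dTAG cells, at 7.31 and 6.90 CPM in DMSO against 25.6 and 23.4 in DHX35-dTAG cells, and at 7.06 and 7.20 CPM in dTAG-13 against 23.2 and 23.7. The log2 difference of GPATCH1-dTAG minus DHX35-dTAG cells was -1.75 over both treatments (SE 0.08, adjusted p = 3.61e-05, edgeR). In that setting of low Gpatch1 mRNA, none of the 10 relatives was called in DMSO, in dTAG-13 or over both treatments by edgeR or by DESeq2, where edgeR called 0.0916%, 0.0916% and 0.666% of all genes. At an unadjusted p under 0.05 there were 2, 0 and 2 of the 10, against 12.9%, 8.47% and 15.1% of all genes. The groups did not overlap for 7 of the 10 in DMSO and 6 in dTAG-13, against 43.1% and 45.7% of all genes, and for 0 of the 10 over all 4 libraries of each line, against 11.6%. Over both treatments the 95% interval of every one of the 10 lay within a 1.5-fold difference either way. In DMSO it did so for 7, the exceptions being Gpatch3, Gpatch4 and Gpatch11, and in dTAG-13 for 9, Gpatch3 being the exception. The value over both treatments averages differences of opposite sign for Gpatch3 (-0.70 in DMSO and 0.35 in dTAG-13) and Gpatch11 (0.55 and -0.09).

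Gpatch11 and Gpatch3 gave the largest differences between the lines in DMSO. For Gpatch11 it was 0.55 (SE 0.13, 95% interval 0.26 to 0.85, adjusted p = 0.28, edgeR), against -0.09 (95% interval -0.38 to 0.21) in dTAG-13. For Gpatch3 it was -0.70 (SE 0.22, 95% interval -1.19 to -0.20, adjusted p = 0.34, edgeR) in DMSO and 0.35 (95% interval -0.15 to 0.85) in dTAG-13. The DMSO value of Gpatch3 was called with total counts as library sizes (-0.87, adjusted p = 0.00859, edgeR) and when no gene was filtered out (-0.68, adjusted p = 0.00896, edgeR). Total counts shift the median of all genes in this comparison by -0.18. Both fits called more of all genes than the main fit, and their counts are given with the alternatives below. The line differences in DMSO use the same DMSO libraries as the responses to dTAG-13 above and are not separate evidence. Without DHX35-dTAG replicate 1 the DMSO difference was 0.59 for Gpatch11 and -0.29 for Gpatch3, neither called. Without replicate 2 it was 0.52 for Gpatch11 (adjusted p = 0.0174, edgeR) and -1.01 for Gpatch3 (adjusted p = 1.92e-05, edgeR), in a fit that called 34.3% of all genes. Gpatch4 had a difference of -0.39 (95% interval -0.78 to 0.00) in DMSO, which was -0.06 without replicate 1 and -0.65 (adjusted p = 3.70e-05, edgeR) without replicate 2, and it had -0.28 (95% interval -0.56 to -0.00, adjusted p = 0.33, edgeR) over both treatments, which was -0.11 without replicate 1. Over both treatments, 3 of the 10 were called without replicate 2, Gpatch3 (-0.33), Gpatch4 (-0.41) and Gpatch8 (0.21), a share like the 30% of all genes called in that fit. For Gpatch8 the DMSO difference was 0.26 (95% interval -0.02 to 0.54), which was 0.07 without replicate 1 and 0.49 (adjusted p = 0.000135, edgeR) without replicate 2. The other 6 genes, Tfip11, Gpkow, Sugp1, Rbm17, Gpatch2 and Gpatch2l, had differences between -0.07 and 0.09 in DMSO and between -0.09 and 0.17 in dTAG-13.

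**Figure D4:**
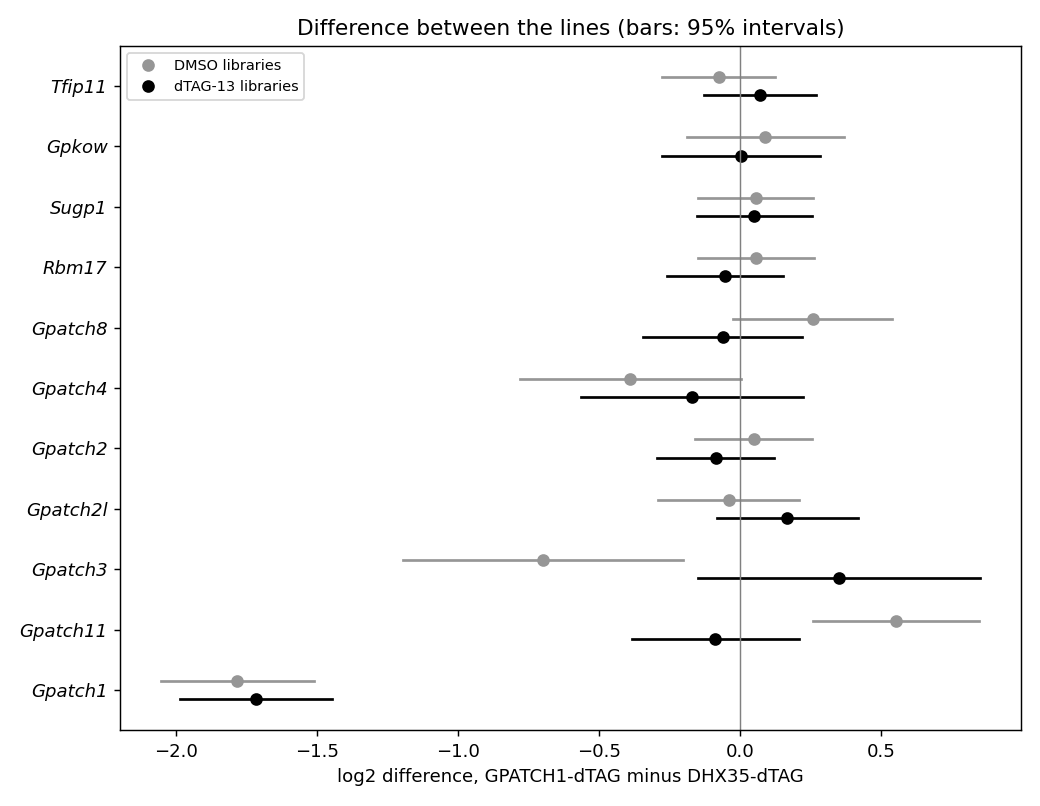
Points are log2 differences, GPATCH1-dTAG minus DHX35-dTAG cells, in the DMSO libraries (grey) and the dTAG-13 libraries (black), with 95% intervals as bars. Gpatch1 lies near -1.78 and -1.72 in both treatments, and the 10 relatives lie closer to 0, the farthest being Gpatch3 (-0.70), Gpatch11 (0.55) and Gpatch4 (-0.39) in DMSO and Gpatch3 (0.35) in dTAG-13, none of them called.

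The rest of the pathway was followed through 12 further genes for G-patch proteins and 14 genes for helicases and factors that work with them, among them Dhx15, Dhx16, Prpf8 and Sf3b1. All 12 and all 14 were tested, and none was called in any of the 6 comparisons by edgeR. In DHX35-dTAG cells the smallest p-values of the 12 were those of Cherp, with a log2 fold change of 0.33, and Zgpat, with -0.33, and 0 of the 12 had an unadjusted p under 0.05, against 5.39% of all genes. Of the 14 they were those of Sde2 (-0.23), whose product helps to dock DHX15, and Wdr83 (-0.60), a companion of DHX35 and GPATCH1, again with 0 under 0.05. In GPATCH1-dTAG cells they were those of Gpank1 (0.18) and Aggf1 (0.11) and of Snrnp200 (0.06) and U2af2 (0.06), with 0 under 0.05 in both lists, against 2.97% of all genes. The difference between the responses, with 0 under 0.05 in both lists too, was 0.40 for Gpank1, 0.39 for Zgpat, 0.29 for Sde2 and 0.69 for Wdr83. The values in DHX35-dTAG cells rested on replicate 1 in DMSO. Wdr83 was at 29.9 CPM there, at 14.3 CPM in replicate 2 and at 15.2 and 13.8 CPM in dTAG-13, and without replicate 1 its log2 fold change was 0.02. Without that library, the log2 fold change was 0.09 for Cherp, -0.04 for Zgpat and -0.09 for Sde2, and the difference between the responses was 0.21 for Gpank1, 0.10 for Zgpat, 0.16 for Sde2 and 0.07 for Wdr83. None of these was called. Without replicate 2 in its place, 5 of the 12 and 8 of the 14 were called for the response of DHX35-dTAG cells (28.8% of all genes), and 5 and 6 for the difference between the responses (20.9%). In the same fit 7 and 7 were called between the lines in DMSO (34.3%), 1 and 0 in dTAG-13 (3.79%) and 6 and 6 over both treatments (30%). With all libraries, the counts at an unadjusted p under 0.05 between the lines were 3 of the 12 and 2 of the 14 in DMSO, 1 and 1 in dTAG-13 and 3 and 2 over both treatments, against the shares of all genes given above. Between the lines, Rbm5, which encodes a splicing regulator with a G-patch, had log2 differences of 0.33 in DMSO and 0.28 in dTAG-13. Over both treatments it had 0.31 (SE 0.08, adjusted p = 0.15, edgeR). Without replicate 1 in the DMSO group of DHX35-dTAG cells these values were 0.17, 0.28 (adjusted p = 0.0227, edgeR) and 0.23 (adjusted p = 0.0137, edgeR), in fits that called 3.87% of all genes in dTAG-13 and 5.29% over both treatments. The other smallest p-values between the lines were those of Gpank1 (-0.48) and of Prpf8 (0.31) and Sde2 (-0.23) in DMSO, of Pinx1 (0.23) and of Snrnp200 (0.19) and Sf3b1 (0.20) in dTAG-13, and of Pinx1 (0.29) and of Prpf8 (0.24) and Snrnp200 (0.14) over both treatments. Without that library the DMSO values were -0.29 for Gpank1, 0.16 for Prpf8 and -0.10 for Sde2, and over both treatments Prpf8 (0.16) and Snrnp200 (0.17) were called. The mRNA of Dhx35 was lower in the GPATCH1-dTAG line, with a log2 difference of -0.40 over both treatments (SE 0.07, adjusted p = 0.0406, edgeR). It stayed between -0.43 and -0.35 in 14 alternatives but was no longer called in 7, which were total counts as library sizes and the omission of any 1 of the 6 libraries outside the DMSO group of DHX35-dTAG cells, with adjusted p up to 0.31 (edgeR). Beside these differences, the markers Utf1 (-0.49) and Gata3 (1.04) also passed the threshold between the lines over both treatments, and neither did so without any 1 of those 6 libraries. Their part in the values of the 10 genes was not tested.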

How the data were processed

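RNA-seq libraries of 8 mouse embryonic stem cell samples were grouped by the line and treatment in their labels. Per the labels, human DLD-1 RNA was added as a spike-in, ribosomal RNA was removed, and stranded libraries were made. The submitters' processing notes name FastQC 0.11.9, Trim Galore 0.6.6, STAR 2.7.5c, DESeq2 1.26.0 and the builds mm10 and hg19, while the counting program, annotation and strand setting are not given in the sources used here. Raw, unnormalized counts were deposited, with 55291 genes in the table of each library. Spike-in reads and splice junctions were not used here.

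Counts were filtered with filterByExpr, scaled by TMM and tested with edgeR 4.0.16 in R 4.3.3 (quasi-likelihood test, 1 term per group, all 8 libraries, Benjamini-Hochberg adjustment over 16371 genes, threshold 0.05), giving 6 comparisons. Each standard error was taken from the fold change and its F statistic (absolute log2 value over the root of F). The common dispersion corresponded to a coefficient of variation of 11.2%. Exon lengths, positions and sequences came from GENCODE M21 (GRCm38, the same assembly as mm10). Total counts of 12014203 to 14994173 gave at least 97 counts for each of the 10 genes in each library. Tested on simulated data for the dTAG-13 response of DHX35-dTAG cells over 16371 genes, the procedure called 166 of 200 genes changed 2-fold and 8 others. The responses of the 10 genes to dTAG-13 were all smaller than 2-fold, and this figure does not cover such changes. Replicates of a group were no duplicates, since the chi-square statistic per gene between them was 4.93 to 121, against 1 for sampling noise. Over all 28 pairs of libraries the lowest value, 3.21, was between groups. It joined replicate 2 of DHX35-dTAG cells in dTAG-13 and replicate 2 of GPATCH1-dTAG cells in DMSO. These held 20.2% and 20.9% of their counts on Gm23935 and CT010467.1, and the statistic was taken on total counts.

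The 10 genes and the other lists were chosen with earlier results of these data known. The 10 were described throughout, with Gpatch1 and Dhx35 as reference. Of the other G-patch genes and their partners, those with an adjusted p under 0.05 and the 2 with the smallest p in each list and comparison were named, and of the marker lists those with an adjusted p under 0.05. Similar genes were the 3 with the highest Pearson correlation to each of the 2 genes with the widest range. Alternatives were DESeq2 1.42.0, edgeR with its size factors or with total counts as library sizes, testing every gene that had a count or those with 10 counts or more per library, blocking on the replicate number, fitting the 4 libraries of a comparison alone, and omitting libraries one by one. For genes other than the 10, Gpatch1 and Dhx35, the last was added after the data had been seen, as were the correlations without 1 library.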

Additional observations from a re-analysis of the deposited data

Results flagged for a closer look

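For 3 of the 10 genes every dTAG-13 library moved one way from both DMSO libraries in DHX35-dTAG cells and the opposite way in GPATCH1-dTAG cells. So did the share of counts on Gm23935 and CT010467.1. It went from 3.15% and 1.54% in DMSO to 12.0% and 20.2% in dTAG-13 in DHX35-dTAG cells. In GPATCH1-dTAG cells it went from 4.23% and 20.9% to 1.27% and 2.02%. The part of this share in the flagged values was not tested. The response of GPATCH1-dTAG cells minus that of DHX35-dTAG cells was 1.05 on the log2 scale for Gpatch3, -0.64 for Gpatch11 and -0.32 for Gpatch8. Tested directly, none of these differences passed the adjusted threshold (adjusted p = 0.86 for each, edgeR), and 6.21% of all genes have the same pattern. Those of Gpatch3 and Gpatch8 moved to 0.64 and -0.13 without the library that stood apart, replicate 1 in the DMSO group of DHX35-dTAG cells, and that of Gpatch11 to -0.68. With total counts as library sizes the differences were 1.44 for Gpatch3, which was then called, -0.24 for Gpatch11 and 0.092 for Gpatch8, the last with its sign turned. That setting shifts the median difference of all genes by 0.40 and called more of all genes than the main fit.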

How the results depend on the processing

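With 2 libraries a group, 1 library can set a result, as for Gpatch3, Gpatch4 and Gpatch8. Of 880 values of the 10 genes under alternatives, 800 kept their direction and their side of the threshold, 61 changed sign and 19 came to pass it. DESeq2 called none of the 10 in any comparison, and 1 gene of all for the dTAG-13 response of DHX35-dTAG cells, 9 for the difference between the responses, and 46 and 47 between the lines in DMSO and in dTAG-13, against 0, 0, 15 and 15 by edgeR. Total counts as library sizes shift all genes, by a median log2 value of -0.24 (DHX35-dTAG response), 0.16 (GPATCH1-dTAG response), 0.40 (difference of these), -0.18 (lines in DMSO), 0.22 (lines in dTAG-13) and 0.02 (lines over both), and call 318, 10, 179, 701, 70 and 258 genes. With them the response of DHX35-dTAG cells became -0.23 for Gpatch2, -0.013 for Gpatch8, -0.20 for Gpkow, -0.21 for Tfip11, -0.20 for Sugp1 and -0.11 for Rbm17. That of GPATCH1-dTAG cells became 0.036 for Gpatch2, 0.079 for Gpatch8 and 0.12 for Gpkow. The difference between the responses became 0.092 for Gpatch8, and that between the lines in dTAG-13 became 0.14 for Gpatch11. By the responses just given, the sign of the difference between them also turned for Gpatch2 (-0.13 in the main fit) and Gpkow (-0.09). The list is not complete for the difference between the responses. In that setting 1 of the 10, Gpatch3, was called for the difference between the responses (1.44) and 1, again Gpatch3, between the lines in DMSO (-0.87). Without a filter Gpatch3 was called in the same 2 comparisons (1.05 and -0.68), and all genes gave 345, 21, 140, 986, 158 and 890 calls in the order above. With at least 10 counts in every library, Gpatch2 had -0.0029 for the response of DHX35-dTAG cells, and 4 genes were called between the lines in DMSO and 4 in dTAG-13. The 4 libraries of a comparison alone gave 1, 127, 2 and 342 genes for the 2 responses and the lines in DMSO and dTAG-13, with 1 of the 10, Gpatch3 (0.51), called for the response of GPATCH1-dTAG cells. In DMSO alone Gpatch1 then had -1.78 with an adjusted p of 0.13 (edgeR).

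With each library left out in turn, 0 to 3 of the 10 were called for the response of DHX35-dTAG cells, 0 to 0 for that of GPATCH1-dTAG cells, 0 to 4 for their difference, 0 to 4 and 0 to 0 between the lines in DMSO and dTAG-13, and 0 to 3 over both. Of all genes, 0 to 4949, 0 to 51, 0 to 3592, 4 to 5887, 4 to 660 and 16 to 5149 were called. The highest count came without replicate 2 of the DMSO group of DHX35-dTAG cells, apart from the 51, reached also without replicate 1, and the 660, which came without replicate 1. The response of DHX35-dTAG cells then ranged from -0.035 to 0.051 for Gpatch2, -0.14 to 0.042 for Gpatch2l, -0.47 to 0.13 for Gpatch4 and -0.092 to 0.20 for Gpkow. That of GPATCH1-dTAG cells ranged from -0.061 to 0.089 for Gpatch4, -0.091 to 0.0011 for Gpkow and -0.060 to 0.12 for Sugp1, and the difference between the responses from -0.12 to 0.48 for Gpatch4.

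Replicates 1 and 2 are numbers only, since nothing in the labels ties them to a batch, and deviations of same-numbered libraries from their group means correlated by 0.04 to 0.23. A replicate block gave 2 genes for the difference between the responses against 0, and changed no call of the 10.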
